A study of Ovis aries with 7 samples.

Results

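Endothelin 1 and the matricellular genes CCN1 and CCN2 were measured in the hypothalamus of late-gestation fetal sheep by 5 of the 15008 distinct probes on a 1-colour oligonucleotide array. EDN1, listed under its older name preproendothelin 1, had 1 probe. CCN1, described as cysteine-rich angiogenic inducer 61, had 2 probes, and CCN2, described as connective tissue growth factor, had 2 probes. These were all the non-control probes whose name or description gave any of the 3 genes. The genes had been picked because they were among those higher after hypoxia, so their differences between hypoxia and control arrays are given as a description, without a test.

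The hypoxia group held 3 fetuses whose ewes breathed gas of low oxygen tension for 30 min and then normal gas for another 30 min. The control group held 4 fetuses kept at normoxia over both periods. All 7 fetuses carried chronic catheters, were of matched age and gave the hypothalamus at 60 min, when the recovery period ended, with 1 array per fetus. Breed and sex are not given in the sources used here, and whole hypothalamus was used, so that the cell type carrying a transcript is not known and fewer cells of a type cannot be told apart from less RNA per cell.

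Endothelin 1 is a secreted peptide, cut from a longer precursor, that constricts vessels through the receptor EDNRA and acts through EDNRB on endothelium and glia. In brain it is made by endothelial cells, and also by neurons and astrocytes. CCN1 and CCN2 encode secreted proteins of the extracellular matrix that bind integrins and growth factors, and both are known as genes transcribed soon after serum, stretch or growth factor stimulation of cultured cells.

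The 5 probes are shown because the spread of each member rests on 1 probe, or on 2 probes whose overlap decides how far they are separate readings. Probes of CCN1 are given whole, with the bases that both share in capitals. They are offset by 1 base and have 59 of 60 bases in common, so they read the same stretch of the transcript. Of the EDN1 and CCN2 probes the first 30 of 60 bases are given, in lower case. Starts of the CCN2 probes lie at bases 536 and 215 of the target sequence named in the files, so these read separate stretches. No probe of another gene on the array shared a run of 20 bases with any of the 5.
EDN1 probe 1: ccccgtgaagatttttctaaggaatgcaca
CCN1 probe 1: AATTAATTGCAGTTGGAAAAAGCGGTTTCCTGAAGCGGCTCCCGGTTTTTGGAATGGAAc
CCN1 probe 2: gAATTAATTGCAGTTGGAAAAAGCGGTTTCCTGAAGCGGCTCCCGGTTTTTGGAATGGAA
CCN2 probe 1: ttctgtctattagactggacagcttgtggc
CCN2 probe 2: tcaaccccagacactggtttgaagaattga

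Each array showed between 77.19% and 86.36% of its spots well above background, with the lowest share on control replicate 1, and the 75th percentile of its processed signal lay between 2023.8 and 2908.4. All 3 hypoxia arrays lay on slide 1, control replicates 1 and 2 on slide 2 and control replicates 3 and 4 on slide 3, and each slide had its own scan time. Slide and treatment therefore cannot be told apart for any difference between hypoxia and control below. Of 12 hypothalamic peptide genes listed, 11 were on the array, among them OXT, POMC and GHRH, and these 11 were well above background on all 7 arrays. Each member probe had 1 spot per array, was well above background on all 7 arrays and was saturated on none. Levels are log2 processed signals relative to the 75th percentile of the same array, so a level is read only against other arrays of the same probe.

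EDN1 was higher on every hypoxia array than on every control array. Its level was -0.89, 0.14 and -0.50 in hypoxia replicates 1, 2 and 3, against -1.70, -1.55, -1.29 and -2.29 in control replicates 1 to 4. Hypoxia replicate 2 was highest and control replicate 4 lowest, and the lowest hypoxia array stood 0.39 above the highest control array, a gap smaller than the SD within either group. Processed signals before scaling were 1397, 2415 and 1658 in the hypoxia fetuses and 634, 691, 1193 and 486 in the control fetuses, so the groups were apart before scaling too. The mean level was -0.42 ± 0.52 in hypoxia and -1.71 ± 0.42 in control (SD, n = 3 and 4), a log2 difference of 1.29 (SE 0.30), or 2.44-fold. Of the 12712 probes kept for testing, 1112 (8.75%) had all 3 hypoxia arrays above all 4 control arrays, and EDN1 held rank 133 by its difference, with 1.04% of probes having a larger one. The groups stayed apart under all 6 scalings tried, and the difference ranged between 1.01 without hypoxia replicate 2 and 1.52 without hypoxia replicate 1.

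**Figure D1:**
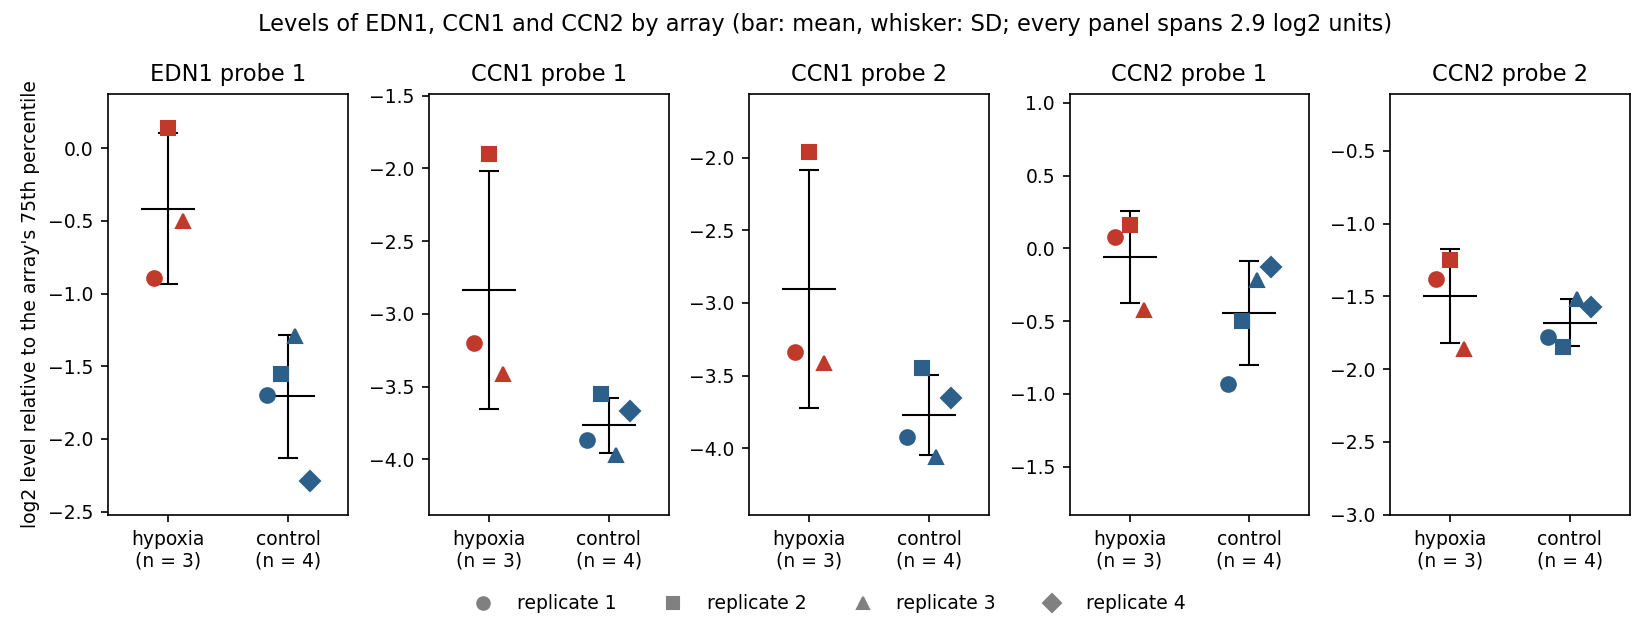
Log2 level relative to the 75th percentile of each array for the 5 probes, with hypoxia fetuses (red, n = 3) left of control fetuses (blue, n = 4). Marker shapes give the replicate, bars the mean and whiskers the SD. EDN1 has 3 hypoxia arrays between -0.89 and 0.14 and 4 control arrays between -2.29 and -1.29, hypoxia replicate 2 stands above the other 6 arrays for CCN1, and the groups overlap for CCN2.

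CCN1 was also higher on every hypoxia array than on every control array, as were 8.75% of all tested probes. Its mean difference, however, depended on 1 fetus. Probe 1 gave -3.20, -1.90 and -3.41 in the hypoxia fetuses, against -3.87, -3.55, -3.97 and -3.67 in the control fetuses. Hypoxia replicate 2 stood far above the rest, while hypoxia replicates 1 and 3 lay close to the control arrays, and the gap between the lowest hypoxia and the highest control array was 0.13. Mean levels were -2.84 ± 0.82 in hypoxia and -3.76 ± 0.19 in control (SD, n = 3 and 4), a log2 difference of 0.93 (SE 0.35), or 1.90-fold, at rank 322 of the tested probes. Without hypoxia replicate 2 the difference was 0.46.

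The overlapping CCN1 probe 2 gave -3.34, -1.96 and -3.41 in hypoxia, against -3.92, -3.45, -4.06 and -3.65 in control. It repeated the order of the hypoxia arrays seen with probe 1, and its group means, -2.90 ± 0.82 in hypoxia and -3.77 ± 0.27 in control (SD, n = 3 and 4), differed by 0.87 (SE 0.36), or 1.82-fold. The gap was 0.04, and the groups overlapped for this probe with median scaling, quantile normalization or normexp background correction. For probe 1 they overlapped with normexp alone of these, with a gap of -0.08. Without hypoxia replicate 2 the difference for probe 2 was 0.40, and in each setting tried for either probe the mean was higher in hypoxia.

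CCN2 overlapped between the groups. Probe 1 gave 0.08, 0.16 and -0.42 in the hypoxia fetuses, against -0.93, -0.50, -0.22 and -0.13 in the control fetuses. Hypoxia replicates 1 and 2 exceeded the highest control array, while hypoxia replicate 3 lay between control replicates 2 and 3. Means were -0.06 ± 0.32 in hypoxia and -0.45 ± 0.36 in control (SD, n = 3 and 4), a log2 difference of 0.39 (SE 0.23), or 1.31-fold, and 13.4% of tested probes had a larger one. Probe 2 gave -1.38, -1.25 and -1.86 in hypoxia, against -1.78, -1.85, -1.52 and -1.57 in control, and hypoxia replicate 3 was the lowest of the 7. Its means of -1.50 ± 0.32 in hypoxia and -1.68 ± 0.16 in control (SD, n = 3 and 4) differed by 0.18 (SE 0.17), or 1.13-fold. With the deposited values, which have no scaling between arrays, 1 hypoxia array exceeded the highest control array for probe 1 and 0 for probe 2.

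How far CCN2 differed depended on which controls it was set against. Relative to the controls of slide 2 the difference was 0.65 for probe 1 and 0.31 for probe 2, and relative to those of slide 3 it was 0.12 and 0.05. Without control replicate 1, the lowest array for probe 1, the difference of probe 1 was 0.22. Without hypoxia replicate 2 that of probe 2 was 0.05, and without hypoxia replicate 3 the differences were 0.57 for probe 1 and 0.36 for probe 2. EDN1 moved less between control slides, with 1.21 against slide 2 and 1.37 against slide 3, and CCN1 probe 1 had 0.87 and 0.98.

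**Figure D2:**
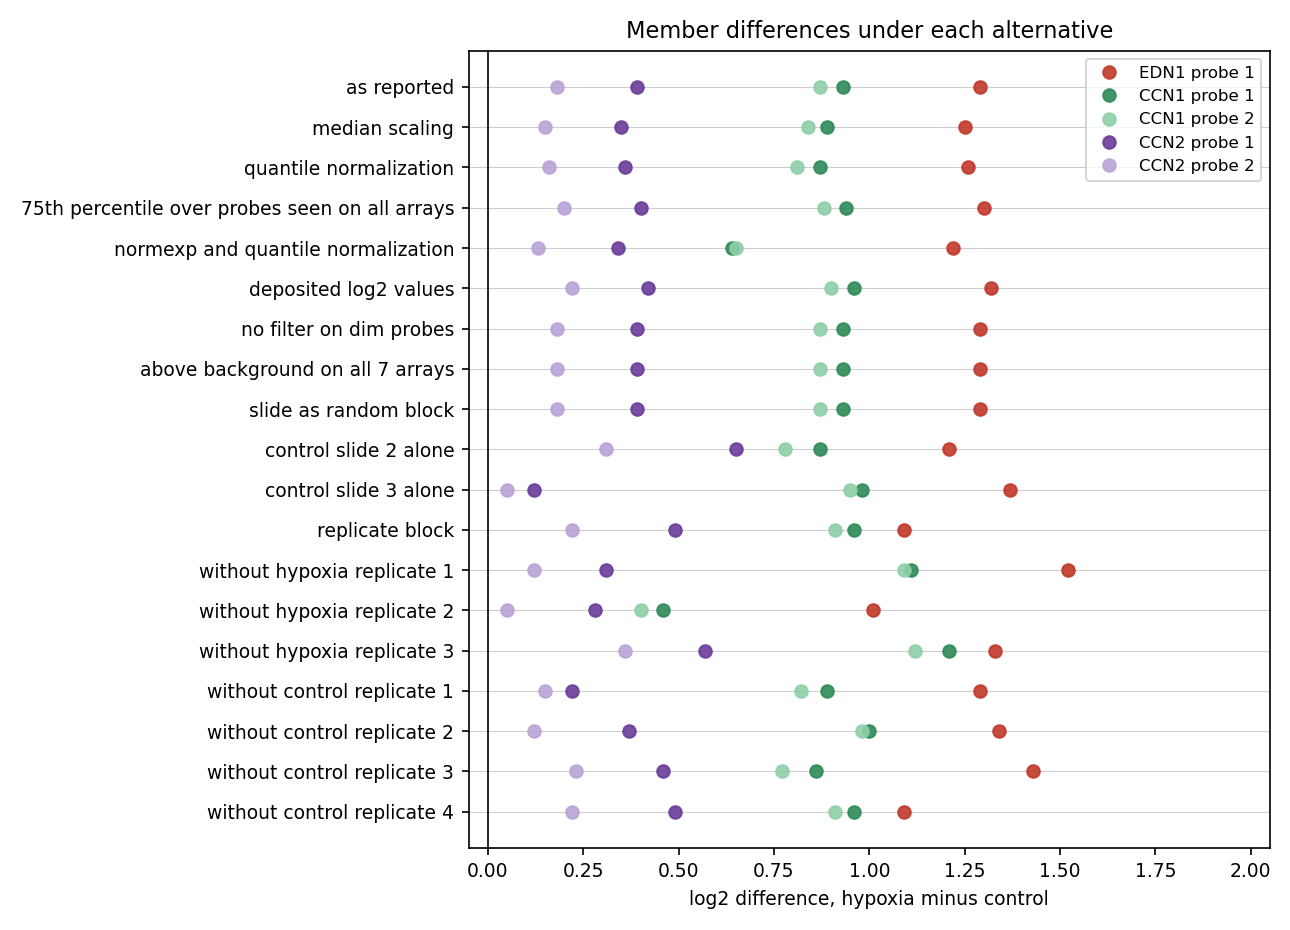
Log2 difference, hypoxia minus control, of each probe as reported (top row) and under 18 alternatives (rows below). All points lie above 0, those of EDN1 between 1.01 and 1.52. CCN1 probe 1 has its lowest point, 0.46, without hypoxia replicate 2, and CCN2 probe 1 its lowest, 0.12, with control slide 3 alone.

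A contrast that did not enter the choice of the genes was that between the control slides, which compares fetuses of a single group. In limma with a mean for each slide, 156 of 12712 probes (1.23%) differed between slides 3 and 2 at an adjusted p under 0.05, and 1288 (10.1%) at an unadjusted p under 0.05. The first count was 2 with the control arrays fitted alone, 20 without control replicate 3 or 4 and 236 without control replicate 2. None of the 5 member probes was among either. EDN1 averaged -1.79 on slide 3 and -1.63 on slide 2, a difference of -0.16 (SE 0.42, limma adjusted p = 0.921), and this turned to 0.34 without control replicate 4. For CCN1 the differences were -0.11 (SE 0.48, limma adjusted p = 0.954) with probe 1 and -0.17 (SE 0.50, limma adjusted p = 0.931) with probe 2, and both turned positive without control replicate 2 or 3. With the deposited values, which have no scaling between arrays, EDN1 had 0.20 and CCN1 0.25 and 0.19, so no direction is given for these genes. CCN2 had the widest gap of the 3 genes, -0.18 on slide 3 and -0.71 on slide 2 with probe 1, a difference of 0.54 (SE 0.24, limma unadjusted p = 0.0652, adjusted p = 0.527), and 0.27 (SE 0.21, limma adjusted p = 0.717) with probe 2. For probe 1 this was 0.32 without control replicate 1 and 0.90 with the deposited values, and for probe 2 it was 0.12 with normexp and 0.63 with the deposited values. For CCN2 probe 1 the difference between control slides, 0.54, was larger than that between hypoxia and control, 0.39, and did not pass the test. The fit used all 7 arrays, so the spread within the hypoxia slide also entered each SE and p, which do not measure control spread alone. For CCN1 probe 1 the SD was 0.82 in hypoxia and 0.19 in control. With this and 2 arrays a slide, these intervals are wide and do not show that the slides were alike.

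Within the hypoxia group, all 5 probes, 2 of them the overlapping CCN1 probes, varied more than the median probe of similar level. The member genes, unlike their neighbours, were picked with these same hypoxia values in view, so their spread is given as a description only. CCN1 probe 1 had an SD of 0.82 over hypoxia arrays, against a median of 0.17 among the 500 tested probes nearest to it in mean level, of which 1.6% had a larger one. Over control arrays CCN1 was near its neighbours, with an SD of 0.19 against their median of 0.22. EDN1 varied widely in both groups, with SDs of 0.52 in hypoxia and 0.42 in control, where its neighbours had medians of 0.15 and 0.18. CCN2 probe 1 had SDs of 0.32 in hypoxia and 0.36 in control, against neighbours' medians of 0.14 and 0.17, and probe 2 had 0.32 and 0.16, against 0.16 and 0.18.

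Hypoxia replicate 2 was the highest of the hypoxia arrays for all 5 probes, as it was for 34.7% of tested probes. Hypoxia replicate 1 was lowest for EDN1 and hypoxia replicate 3 for CCN1 and CCN2. Among controls the genes did not share an order. EDN1 was lowest in control replicate 4, CCN1 in control replicate 3 and CCN2 in control replicate 1 with probe 1 and control replicate 2 with probe 2. Expressed as deviations from the group mean, hypoxia replicate 2 stood at 0.56 for EDN1, 0.94 for both CCN1 probes, and 0.22 and 0.25 for CCN2. Control replicate 4 stood at -0.58 for EDN1, against 0.09 and 0.12 for CCN1 and 0.31 and 0.11 for CCN2.

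The CCN1 probes moved together array by array. Probe 1 minus probe 2 ranged between -0.10 and 0.14 over the 7 arrays, with an SD of 0.08. Hypoxia replicate 2 was high in both of these spots, at -1.90 and -1.96. The CCN2 probes, which read separate stretches, differed by 1.29 to 1.47 on 6 arrays and by 0.85 on control replicate 1, and the SD over 7 arrays was 0.22. Control replicate 1 had the lowest share of spots above background, 77.19%, and the part of this in the CCN2 value was not tested.

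**Figure D3:**
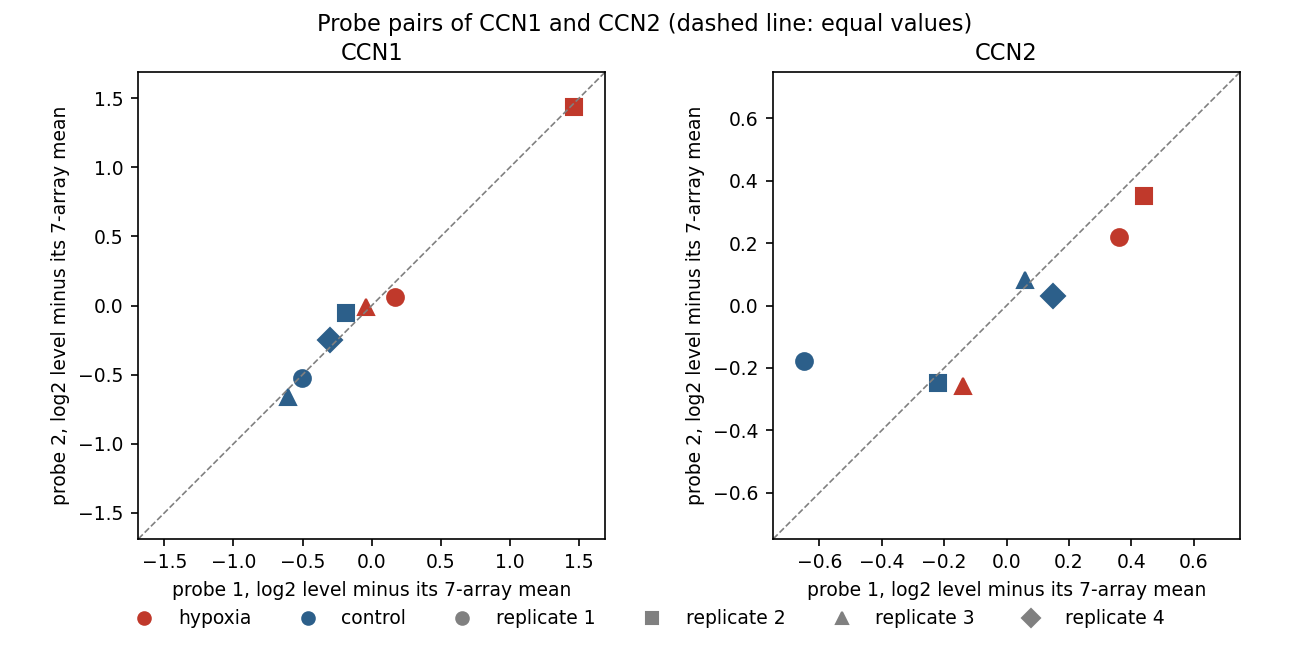
Probe 2 against probe 1 for CCN1 (left) and CCN2 (right), each as log2 level minus the mean of that probe over 7 arrays, with hypoxia in red, control in blue and the dashed line marking equal values. CCN1 points follow the line, with hypoxia replicate 2 far from the other 6, and for CCN2 control replicate 1 lies off the line.

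Of the rest of the endothelin system, 3 of 9 listed genes were measured, and none of the 3 passed an adjusted p under 0.05 in limma, or an unadjusted p under 0.05, with either of its probes. Over all 12712 probes, that adjusted level was passed by 2 (0.0157%), and the unadjusted level by 1990 (15.7%), made up of 8.75% higher and 6.91% lower in hypoxia. The higher ones were thus 55.9% of the 1990 (67.3% with the deposited values, which have no scaling between arrays). They were 46.6% with median scaling, 47.0% with quantile normalization, 48.4% with normexp and 46.9% without hypoxia replicate 3, so no direction is given for the whole. EDNRA, the receptor through which endothelin 1 constricts vessels, had levels of -0.56, -0.26 and -0.43 in hypoxia, against -1.03, -0.69, -0.69 and -0.48 in control with its brighter probe. Hypoxia replicates 2 and 3 lay above all controls and hypoxia replicate 1 did not. The difference was 0.30 (SE 0.15, limma adjusted p = 0.37), while a second, dimmer EDNRA probe gave -0.21 (SE 0.14, limma adjusted p = 0.499), so the probes did not share a direction.

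EDNRB, the receptor of endothelium and glia, gave -2.12, -2.43 and -1.93 in hypoxia, against -2.03, -1.98, -2.14 and -1.86 in control, and the groups overlapped. Its difference was -0.16 (SE 0.14, limma adjusted p = 0.603), with -0.42 (SE 0.20, limma adjusted p = 0.348) for the second probe. ECE1, the endothelin converting enzyme that cuts the precursor to the active peptide, gave -4.33, -3.90 and -3.95 in hypoxia, against -3.88, -3.56, -3.65 and -3.98 in control. Its difference was -0.29 (SE 0.16, limma adjusted p = 0.407), and its second probe gave -0.48 (SE 0.22, limma adjusted p = 0.334). Hypoxia replicate 1 was the lowest array for ECE1 with both probes, and it was also the lowest hypoxia array for EDN1.

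The 4 other CCN family genes listed had no probe named for them here. Of the receptors and binding partners of CCN proteins, 10 of 17 listed genes were measured, and 0 passed the adjusted threshold in limma, with 2 higher and 0 lower at an unadjusted p under 0.05. Of all 744 named genes tested, 61 were higher and 62 lower at that level. The median difference of the 10 genes was 0.13, against 0.03 over all tested probes. It was -0.07 over the members well above background on all 7 arrays, so no direction is given for the group. Leaving out each array in turn gave 0.03 (without control replicate 1) to 0.18 (without control replicate 2). ITGB3, an integrin subunit that binds CCN1 and CCN2, had a difference of 0.64 (SE 0.28, limma adjusted p = 0.326), but was well above background on 4 of 7 arrays, and the difference lay between 0.04 and 1.01 over the alternatives. TLR4, a receptor of innate immunity, had 0.39 (SE 0.15, limma adjusted p = 0.278), and ITGA5, a fibronectin receptor subunit, had 0.39 (SE 0.41, limma adjusted p = 0.666), was well above background on 6 of 7 arrays and lay between 0.03 and 0.72 over the alternatives.

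Of the TGF-beta pathway, a known inducer of CCN2, 12 of 20 listed genes were measured, with a median difference of 0.14. In limma 0 genes passed the adjusted threshold, and 1 was higher and 0 lower at an unadjusted p under 0.05. Of all tested probes, 8.75% were higher and 6.91% lower at that level. The median was 0.02 with normexp, and leaving out each array in turn gave 0.06 (without hypoxia replicate 2) to 0.22 (without hypoxia replicate 1). TGFB2, a ligand, had 0.36 (SE 0.15, limma adjusted p = 0.311) and SMAD3, which carries the signal to the nucleus, 0.50 (SE 0.34, limma adjusted p = 0.489). SMAD3 was well above background on 5 of 7 arrays and lay between 0.01 and 0.82 over the alternatives. INHBA, a subunit of activin, had 0.43 (SE 0.57, limma adjusted p = 0.736), was near its top in control replicate 1 as well as hypoxia replicate 2, and lay between 0.05 and 0.81 over the alternatives. Only 2 of 25 listed genes of the YAP, TEAD and SRF pathways, which drive CCN1 and CCN2 in cultured cells, were measured, ACTG1 at -0.12 (SE 0.11, limma adjusted p = 0.601) and TPM1 at -0.04 (SE 0.10, limma adjusted p = 0.871).

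Beside EDN1, 10 of 33 other genes of vasoactive peptides and nitric oxide were measured, with a median of 0.20. In limma 0 passed the adjusted threshold, and 2 were higher and 0 lower at an unadjusted p under 0.05. That level was passed upward by 8.75% and downward by 6.91% of all tested probes. Leaving out each array in turn moved the median of the 10 genes to between 0.03 (without hypoxia replicate 2) and 0.27 (without hypoxia replicate 1), and it was 0.09 without control replicate 1. NPPC encodes C-type natriuretic peptide, a vasodilator made by endothelium and brain. Like 8.75% of all tested probes, NPPC was above all controls on every hypoxia array. It had levels of -0.73, -0.22 and -0.77 in hypoxia, against -1.19, -1.62, -1.53 and -0.90 in control, a difference of 0.74 (SE 0.22, limma adjusted p = 0.214). CALCA, the precursor of calcitonin gene-related peptide, had 0.46 (SE 0.21, limma adjusted p = 0.333).

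**Figure D4:**
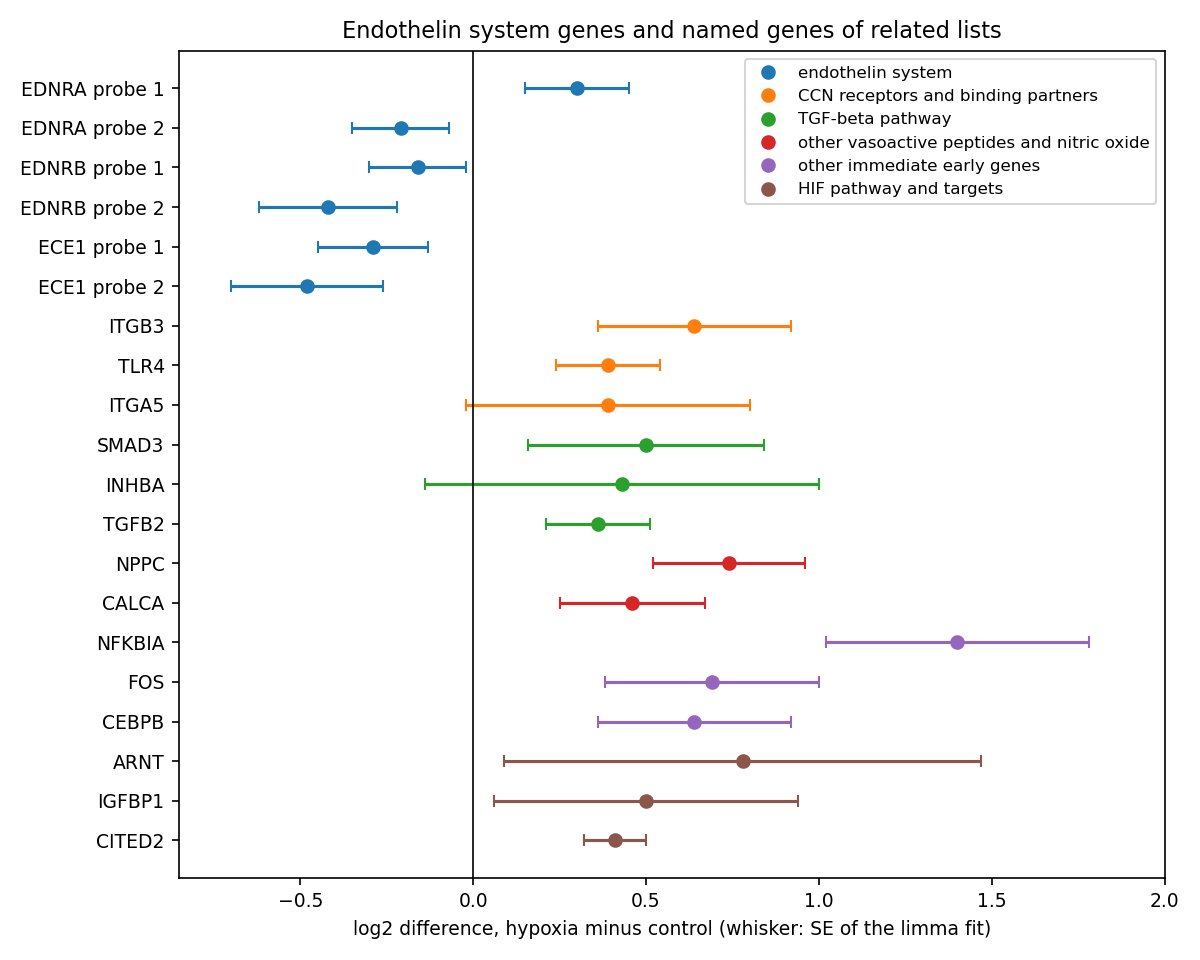
Log2 difference, hypoxia minus control, with its SE from limma, for every probe of the endothelin system genes other than EDN1 and for the 2 or 3 genes that the text names from each of 5 related lists, each by its brightest probe. EDNRA probe 1 lies at 0.30 and the other 5 receptor and converting enzyme probes lie below 0. The other genes shown were picked by size, and none passed the adjusted threshold.

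Among 11 of 35 other immediate early genes measured, 0 passed the adjusted threshold in limma, while 3 were higher and 1 lower at an unadjusted p under 0.05. Of all tested probes, 8.75% were higher and 6.91% lower at that level. The 11 genes had a median of 0.37, and 0.13 without hypoxia replicate 2, the array on which CCN1 stood apart. NFKBIA, an inhibitor of NF-kB that NF-kB itself induces, gave 1.78, 2.76 and 0.94 in hypoxia, against 0.37, 0.67, 0.43 and 0.24 in control. It was highest in hypoxia replicate 2 and lowest of the hypoxia arrays in replicate 3, as CCN1 was, and its difference was 1.40 (SE 0.38, limma adjusted p = 0.197). FOS, a subunit of the AP-1 transcription factor, had 0.69 (SE 0.31, limma adjusted p = 0.34), and CEBPB, a transcription factor of inflammation, 0.64 (SE 0.28, limma adjusted p = 0.33).

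EDN1 is also counted among targets of the hypoxia-inducible factors in cultured endothelium. Of 30 other genes of that pathway listed, 13 were measured, with a median of 0.17, 7 higher and 6 lower. In limma 0 passed the adjusted threshold, and 1 was higher and 1 lower at an unadjusted p under 0.05. At that level 8.75% of all tested probes were higher and 6.91% lower. Over the members well above background on all 7 arrays the median was -0.06, and it was 0.03 with normexp or against control slide 3 alone and 0.04 without control replicate 1. CITED2, a target that restrains the factor, had 0.41 (SE 0.09, limma adjusted p = 0.162), ARNT, the constant subunit, 0.78 (SE 0.69, limma adjusted p = 0.605) and IGFBP1, a binding protein of insulin-like growth factors, 0.50 (SE 0.44, limma adjusted p = 0.603). ARNT and IGFBP1 were well above background on 6 of 7 arrays, with control replicate 1 far below the rest at -8.53 and -8.08, and over the alternatives ARNT lay between 0.03 and 1.20 and IGFBP1 between 0.03 and 0.97.

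Several cell types that can make these transcripts were followed by their markers, each scored per array as the mean over its genes of the log2 level minus the gene's own mean. For endothelium, 6 of 15 markers were measured, all 6 well above background on 7 arrays, and 5 of 6 had a lower mean in hypoxia, with a median of -0.27, where 54.7% of all tested probes had a higher one. Endothelial scores were -0.51, 0.00 and 0.07 in hypoxia and 0.17, 0.09, 0.23 and -0.05 in control. Hypoxia replicate 1 was lowest in score and was the lowest hypoxia array for EDN1, with an EDN1 level still above all controls. That array was also lowest for the meningeal and fibroblast score. For meninges and fibroblasts, 8 of 13 markers were measured, all 8 with a lower mean in hypoxia, a median of -0.78 (-0.49 against control slide 2 alone) and scores of -0.86, -0.28 and -0.08 in hypoxia, against 0.37, -0.31, 0.56 and 0.61 in control. For astrocytes, 7 of 10 markers were measured, 6 of them with a higher mean in hypoxia, a median of 0.45 (0.24 with normexp, 0.30 without hypoxia replicate 3) and scores of 0.10 to 0.23 in hypoxia and -0.31 to 0.09 in control. Of these 3 lists 0 genes passed the adjusted threshold in limma, while 3 astrocyte markers were higher and 1 endothelial, 4 meningeal and 1 astrocyte marker lower at an unadjusted p under 0.05. Of all 744 named genes tested, 61 were higher and 62 lower at that level. The part of cell composition in the EDN1, CCN1 and CCN2 values was not tested.

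Pericytes, microglia and ependyma were less well covered. The 2 pericyte and smooth muscle markers measured, of 10, scored between -0.26 and 0.12 in hypoxia and between -0.53 and 0.67 in control. The 3 microglial markers measured, of 10, had scores of -0.01 to 0.24 in hypoxia and -0.39 to 0.10 in control. TTR, a transcript of choroid plexus, was the only ependymal marker measured and varied most, with levels of -1.77, 3.49 and -0.08 in hypoxia, against 2.18, 3.69, 1.17 and 0.56 in control. It was the highest of the hypoxia arrays in hypoxia replicate 2, where CCN1 was high, and was high in control replicate 2 too, where CCN1 was the highest of the controls with both probes. Other arrays differed. TTR was lowest of all in hypoxia replicate 1, where CCN1 was above all controls. In control replicate 1 TTR was 2.18, while CCN1 probe 1 was -3.87. The 11 hypothalamic peptides had a median of 0.08 and scores of -0.12 to 0.23 in hypoxia and -0.32 to 0.16 in control. That median was 0.27 against control slide 2 alone, -0.28 against control slide 3 alone, -0.03 without hypoxia replicate 1 and -0.04 without control replicate 1, so it has no settled direction. The part of choroid plexus in the CCN1 values was not tested.

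Which of 741 other named genes had levels closest to each member was measured as the root mean square difference over the 7 arrays, with each gene centred on its own mean. For EDN1, whose own root mean square was 0.75, the closest were KITLG (0.31), CD247 (0.35), CYP3A24 (0.40), TUBA4A (0.41) and NFAT5 (0.41), where the median over the 741 genes was 0.78. KITLG encodes the ligand of the KIT receptor and NFAT5 a transcription factor of osmotic stress. For CCN1 the closest were JUNB (0.26), PAEP (0.30), CEBPB (0.31), NFKBIA (0.32) and IL1A (0.32), with a median of 0.67. JUNB, an AP-1 subunit, stood at -0.10, 1.04 and -0.09 in hypoxia and between -0.32 and -0.15 in control relative to its mean, so it too was high in hypoxia replicate 2 and near the controls in the other hypoxia arrays. CCN1 lay at 0.46 from EDN1, at rank 14, and CCN2 at 0.66, at rank 116. These values include the difference between the groups, which the choice of the genes used. With the group means taken out, CCN1 lay at rank 303 from EDN1 and CCN2 at rank 492.

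CCN2, with a flatter profile of root mean square 0.35, was closest to CD9 (0.15), a membrane tetraspanin, CXCL1 (0.19), NOX5 (0.19), IL18 (0.20) and GSTA1 (0.21), where the median was 0.42. CD9, CXCL1, NOX5, IL18 and GSTA1 were all lowest in control replicate 1, as CCN2 was with probe 1. They were chosen for closeness to that probe over these same arrays, so a shared lowest array is not a separate observation. A gene with little change is close to any flat profile, which limits what the values for CCN2 tell. Those for EDN1 and CCN1 include the difference between the groups, which the choice of the genes used. The 7 arrays behind every value share slides and, within a group, treatment.

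**Figure D5:**
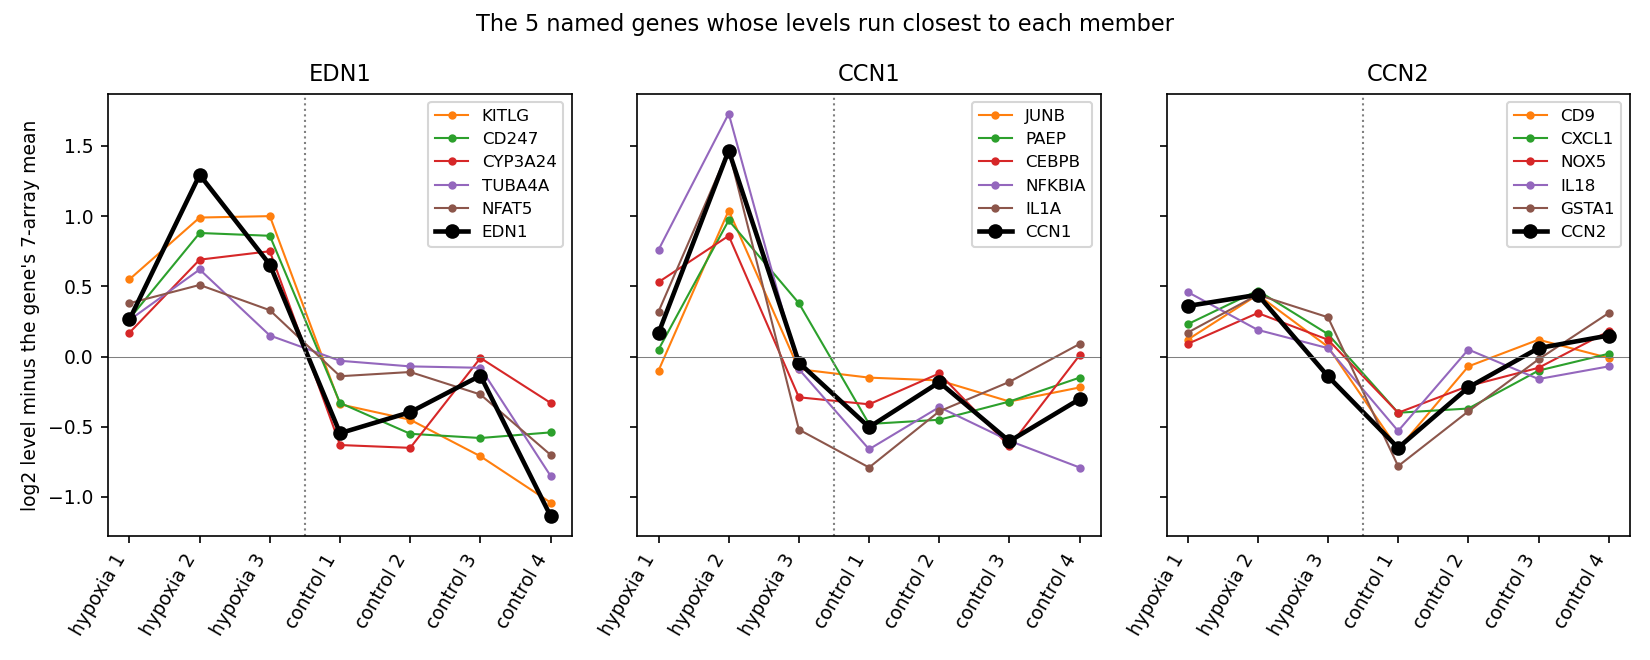
Log2 level minus the gene's mean over 7 arrays for EDN1, CCN1 and CCN2 (black) and the 5 named genes closest to each (colours), with hypoxia arrays left of the dotted line and control arrays right of it. CCN1 peaks in hypoxia replicate 2 together with JUNB and NFKBIA, EDN1 is above its mean on all 3 hypoxia arrays, and CCN2 and its closest genes are lowest in control replicate 1.

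Taking out the group means left the variation among arrays of a group. Any difference between the control slides stayed in it, and array noise cannot be told apart from variation among fetuses. On these deviations CCN1 was again closest to JUNB (0.15), then NFKBIA (0.21), ITGB5 (0.23), TGFB3 (0.26) and CEBPB (0.28). The root mean square of CCN1 itself was 0.46. ITGB5, an integrin subunit, and TGFB3, a ligand of the TGF-beta family, had differences between the groups of -0.18 (SE 0.23, limma adjusted p = 0.721) and 0.06 (SE 0.19, limma adjusted p = 0.913). EDN1 was closest to CTLA4 (0.19), FLT1 (0.19), S100A4 (0.22), TUBA4A (0.22) and GPD2 (0.24), against 0.39 for itself. FLT1, a receptor of vascular endothelial growth factor, is an endothelial marker, but its 5 probes gave differences between -0.53 and 0.94, both of these from probes well above background on 3 of 7 arrays. S100A4, a meningeal and fibroblast marker, ran close to EDN1 within groups, while its difference between groups was -1.10 (SE 0.21, limma adjusted p = 0.116). For CCN2 the closest were CD9 (0.15), FGF7 (0.17), PSMB8 (0.17), CXCL1 (0.18) and NOX5 (0.18), against 0.29 for itself. CCN2, PSMB8, CXCL1 and NOX5 were below their control means on both slide 2 arrays and above them on both slide 3 arrays. CD9 and FGF7 were above theirs in control replicate 2 too. The part of the control slides in these likenesses was not tested.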

How the data were processed

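Hypothalamic RNA of 3 hypoxia and 4 control fetuses was labelled with Cy3, 1 array per fetus, per the labels' protocols. Agilent Feature Extraction 10.1.1.1 gave the spot intensity values, background-subtracted and detrended across the array, per the file headers. The deposited value table held the log2 of this processed intensity, equal within 5e-09 for every array, with neither scaling between arrays nor centring. Feature flags were used as deposited.

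Reported values are log2 processed intensities scaled to the 75th percentile of the array (control spots excluded). Spots flagged as outliers were dropped, which left 34 probe values missing, none of them of the 3 genes. Replicate spots of a probe were averaged. The fit took the 12712 of 15008 probes that were well above background on 3 or more of 7 arrays, in limma 3.58.1 (R 4.3.3), 2-sided, with Benjamini-Hochberg adjustment at 0.05. The sources used here do not name the authors' test. The procedure was tested on simulated data. The number of arrays limits the precision.

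Names came from the files and from a RefSeq table of the ARS-UI_Ramb_v3.0 assembly (1385 probes, 846 genes). The 3 genes, the 16 gene lists and the tests were chosen with earlier results of these data known. Other genes are represented by their brightest probe. The text names every measured endothelin gene, the 3 genes of largest absolute difference in each related pathway list (none passed the adjusted threshold; 1 such gene is not reported here), and the 5 closest patterns; markers named beside cell types are examples. No neuron marker was among the named probes. Groups and replicate numbers came from the sample titles, and nothing there pairs fetuses. Deviations of same-numbered fetuses correlated at 0.121, 0.088 and 0.107. The planned search of promoters for motifs was not run, and protein sequences were not used here.

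Tried as alternatives were scaling to the median, by quantiles or to a percentile over commonly detected probes, normexp correction (offset 50), the unscaled deposited values, no filter or a stricter filter, slide as a random effect, either control slide by itself, replicate number as a block, omission of each array, and a trended, robust prior.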

Additional observations from a re-analysis of the deposited data

Results flagged for a closer look

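TUBA4A, an alpha tubulin and among the genes closest in pattern to EDN1, had a level of -0.79 in control replicate 4, where the other 3 controls lay between -0.01 and 0.03. EDN1 was lowest on the same array, but TUBA4A was named for its closeness to EDN1 over these same arrays, so this is not a separate observation. Of 76 sets of control values examined, 1 held a value this far apart, where chance gives 3.80, and 3 hypoxia arrays are too few for the same check.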

How the results depend on the processing

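The differences of EDN1, CCN1 and CCN2 were positive in hypoxia under each of 18 alternatives. Each moved from its reported value by less than the pooled SD between replicates. For CCN1 probe 1 that SD, 0.54, includes hypoxia replicate 2, without which the difference was 0.46. CCN1 thus depended on hypoxia replicate 2, and CCN2 on the control slide. Over all probes, the count at an adjusted p under 0.05 was 2, and it was 0 with quantile normalization, with a 75th percentile taken from probes detected everywhere and with no filter on dim probes. It was 35 with normexp, 10 with the deposited values, 25 with probes above background on all 7 arrays and 57 with a trended and robust prior. Against control slide 2 alone it was 232 and against slide 3 alone 4. Leaving out an array gave 0 (control replicate 1, 3 or 4) to 6 (control replicate 2) and 1 without each of the hypoxia arrays in turn. At an unadjusted p under 0.05 the count was 1990, and 981 (deposited values) to 2192 (slide 2 alone) over the same alternatives. With the replicate number as a block the adjusted count was 0, with a log2 difference of 1.09 for EDN1, 0.96 for CCN1 probe 1 and 0.49 for CCN2 probe 1. Same-numbered fetuses correlated best with each other in 3 of 3 hypoxia arrays, a hint from the data and not the design, and not every correlation exceeded 0.1, so the numbers are not taken as pairs. The control slide count of 156 was 469 with the deposited values, 641 with no filter and 2 with control arrays alone, and leaving out an array gave 20 (control replicate 3 or 4) to 236 (control replicate 2). The causes were not tested. All 5 probes were well above background on all 7 arrays. CCN1 probe 1, with processed signals of 221 to 591 in hypoxia and 141 to 186 in control, had 0.64 with normexp.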
